A study of Danio rerio with 6 samples.

Results

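Insulin-like growth factors (IGFs) are secreted growth signals. They act through IGF receptors of the tyrosine kinase class, which switch on the PI3 kinase, Akt and mTOR pathway and the MAP kinase pathway. In extracellular fluid most IGF is held by IGF-binding proteins, which can limit or prolong its action until proteases release the ligand. In the regenerating zebrafish tail fin, Igf2b is known as a ligand made by the blastema, the pool of dividing cells that rebuilds the lost part, with active receptor in the overlying wound epidermis.

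The 10 genes described here are the ligands igf1, igf2a and igf2b, the receptors igf1ra and igf1rb, and the binding proteins igfbp1a, igfbp1b, igfbp2a, igfbp3 and igfbp5b. They were taken by name from the deposited count table, as every entry that is the bare name or the name with a numeric suffix. All 10 had an entry. Together they have 16 of the table's 53709 entries, because igf1ra has 4 entries and igf2b, igf1rb and igfbp2a have 2 each. Of the 16, 15 entries of 9 genes passed the filter on low counts, and igfbp1b did not. The fin blastema RNA came from male zebrafish, Danio rerio, 4 days after the tail fin was cut. ZnO fish were kept in water with 2 mg/L zinc oxide nanoparticles made with propolis extract, and control fish in distilled water, each fish in its own beaker. The sources used here name neither strain nor age. Each group had 3 libraries. The labels do not say how many fish went into a library, so the p-values measure the spread between these libraries, which may be technical. Effects of the particles, of propolis and of zinc ions cannot be told apart, as neither propolis nor a zinc salt had a group.

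Library totals were between 26624174 and 31712994 counts, and 1 count was worth 0.0316 to 0.0383 CPM, a count relative to the TMM-scaled library size. All 21 listed markers of blastema and fin ray mesenchyme were tested, and their summed level was 8053 to 9293 CPM in ZnO and 6034 to 8996 CPM in controls. Of the 17 hepatocyte marker entries, for the main source of circulating Igf1, 3 were tested, and the sum of all 17, at 110 to 204 CPM in ZnO and 49.3 to 134 CPM in controls, was nearly all rbp4. The markers fga and apoa2 had 0 counts in all libraries, fabp10a was at most 0.0383 CPM, and the 16 entries other than rbp4 summed to 1.49 to 3.50 CPM in ZnO and 1.39 to 2.11 CPM in controls. All 13 tested neutrophil markers had negative fold changes, against 48% of all entries, and 4 passed the test as lower, against 0.331% of all entries. The sum of the 13 was 267 to 414 CPM in ZnO and 714 to 903 CPM in controls. Keratinocyte markers, for the epidermis, summed to 28739 to 33301 CPM in ZnO and 21333 to 28699.9 CPM in controls, most of it krt91. Endothelial markers summed to 270 to 302 CPM in ZnO and 244 to 269 CPM in controls. Macrophage markers summed to 559 to 804 CPM in ZnO and 799 to 1264 CPM in controls. Of the 14 tested macrophage markers 13 had negative fold changes, and 0 passed the test, against 0.428% of all entries. At an unadjusted edgeR p under 0.05 there were 1 higher and 7 lower macrophage markers, or 57.1% of the 14 against 15.9% of all entries. DESeq2 called 3 of them lower, against 2.96% of all entries. Of the 10 tested erythrocyte markers 9 had positive fold changes, where 48% of all entries had negative ones. Their median log2 fold change was 1.52. By edgeR 0 of the 10 passed, and DESeq2 called 3 higher, against 1.63% of all entries. Erythrocyte sums were 152 to 393 CPM in ZnO and 39.2 to 157 CPM in controls. The part of these shifts in the IGF results was not tested, and in bulk tissue fewer cells of a type and less RNA per cell cannot be told apart.

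The 2 IGF genes with the smallest p, igfbp1a and igf2b, both had lower levels in every ZnO library than in every control. At an adjusted p of 0.05 (quasi-likelihood test of edgeR, Benjamini-Hochberg over all 25962 tested entries), 0 of the 15 IGF entries passed, where 0.428% of all tested entries passed, 0.0963% as higher and 0.331% as lower. DESeq2 called igfbp1a and igf2b lower, 2 of the 15 entries, where it called 4.59% of all entries, 2.96% lower and 1.63% higher, and limma-voom called 0. At an unadjusted edgeR p under 0.05 there were 3 IGF entries (igfbp1a, igf2b and igf2b_1), all lower, against 15.9% of all entries, 8.2% lower and 7.72% higher. The groups did not overlap at 6 of the 15 entries, 4 of them lower in ZnO, against 22.5% of all entries and 11.2% lower in ZnO. The median log2 fold change was 0.10 over the 15 entries and 0.01 over all entries. The 15 entries belong to 9 genes, so a gene with several entries counts more than once in these figures.

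**Figure D1:**
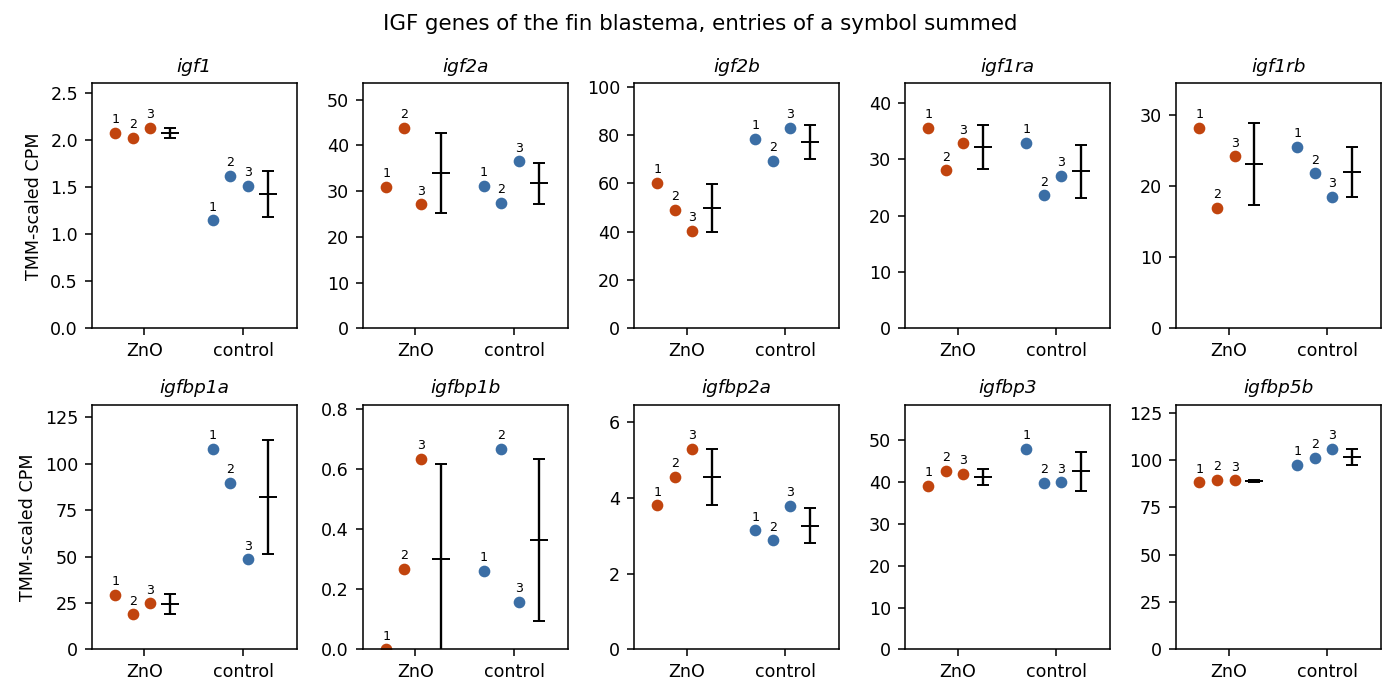
TMM-scaled CPM (vertical axes, from 0) of the 10 IGF genes in each ZnO and control library, with entries of 1 symbol summed. Points are libraries with their replicate number, and the line beside them is the mean with SD (n = 3). For igfbp1a, igf2b and igfbp5b every ZnO point lies below every control point, and for igf1 and igfbp2a above. The groups of igf2a, both receptors, igfbp1b and igfbp3 overlap.

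Among the ligands, igf2b was the one with lower levels in ZnO. Its first entry stood at 27.4, 22.0 and 20.2 CPM in ZnO libraries 1, 2 and 3, and at 38.8, 34.8 and 39.8 CPM in controls 1, 2 and 3. All ZnO libraries were below all controls. The means were 23.2 ± 3.77 CPM in ZnO and 37.8 ± 2.65 CPM in controls (SD, n = 3 each), a ratio of 0.614. The log2 fold change was -0.70 ± 0.14 (SE), with a 95% interval of -1.02 to -0.38. It ranked 303 of 25962 entries by p and missed the edgeR threshold (adjusted p = 0.0748), while DESeq2 called it (adjusted p = 0.00255).

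The second entry of this gene, igf2b_1, gave 32.9, 27.1 and 20.2 CPM in ZnO libraries 1, 2 and 3, and 39.8, 34.5 and 43.3 CPM in controls 1, 2 and 3. Its groups did not overlap either, although ZnO 1 came close to control 2. Its log2 fold change was -0.55 ± 0.18 (SE; edgeR adjusted p = 0.201, DESeq2 adjusted p = 0.113). The entries share a name and took similar parts of its counts in every library, with igf2b at 44.8% to 50.2%. How reads that fit both were counted is not given in the sources used here, so the entries are not independent evidence. Summed, igf2b stood at 49.9 ± 9.96 CPM in ZnO and 77.0 ± 7.05 CPM in controls (SD, n = 3 each), and the log2 fold change was -0.63 ± 0.16 (SE; edgeR adjusted p = 0.120, DESeq2 adjusted p = 0.0174).

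The other IGF2 gene, igf2a, had no such shift. It was at 30.9, 43.9 and 27.1 CPM in ZnO libraries 1, 2 and 3, and at 31.1, 27.4 and 36.5 CPM in controls 1, 2 and 3. The highest and the lowest value were both in ZnO. Its log2 fold change was 0.10 with a 95% interval of -0.34 to 0.54 (edgeR adjusted p = 0.851), and without ZnO 2 it was -0.14. Set against igf2a within each library, which needs no scaling, summed igf2b had a log2 ratio of 0.97, 0.16 and 0.57 in ZnO libraries 1, 2 and 3, and of 1.34, 1.34 and 1.19 in controls 1, 2 and 3. The group means differed by -0.72, with p = 0.1 in a 2-sided exact permutation test, the smallest p that 3 libraries against 3 allow. The pair was chosen after its values were seen.

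The gene igf1, whose product in mammals mediates much of the growth response to growth hormone, was a low-count gene in this tissue. It had 60, 53 and 64 counts in ZnO libraries 1, 2 and 3, and 35, 46 and 48 counts in controls 1, 2 and 3. These are 2.08, 2.03 and 2.14 CPM in ZnO and 1.15, 1.62 and 1.52 CPM in controls, so all ZnO libraries were above all controls. The coefficient of variation between ZnO libraries was 2.60%, below the 13.0% that counting error alone gives at these counts. The log2 fold change was 0.54 ± 0.25 (SE), with a 95% interval of -0.02 to 1.1 (edgeR adjusted p = 0.329, DESeq2 adjusted p = 0.449).

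**Figure D2:**
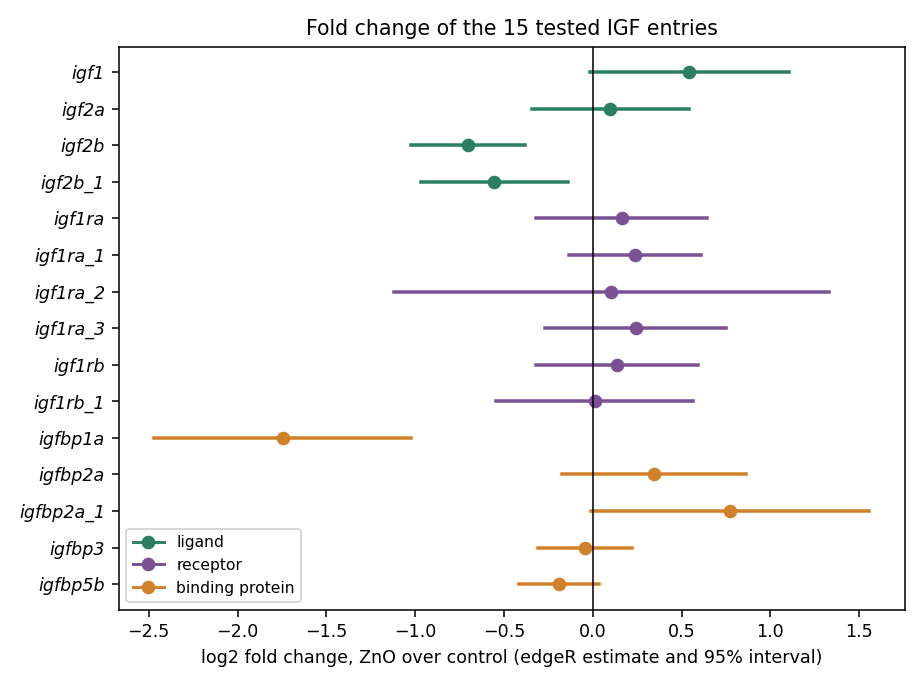
Log2 fold change of ZnO over control (horizontal axis) for the 15 tested IGF entries, by role, with points for the edgeR estimate and lines for its unadjusted 95% interval. The intervals of igfbp1a, igf2b and igf2b_1 lie wholly below 0, and those of the other 12 entries include 0.

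No receptor entry passed the test, and ZnO and control libraries overlapped at each. IGF receptors bind IGF1 and IGF2 at the cell surface, and zebrafish have the duplicates igf1ra and igf1rb. Summed over its 4 entries, igf1ra was at 35.6, 28.1 and 32.9 CPM in ZnO libraries 1, 2 and 3, and at 32.9, 23.6 and 27.0 CPM in controls 1, 2 and 3. Its log2 fold change was 0.21 with a 95% interval of -0.14 to 0.56 (edgeR adjusted p = 0.536). All 4 igf1ra entries had positive fold changes, between 0.10 and 0.24 on the log2 scale. They share a name and the same libraries, so they are not independent evidence. Without control 2 the igf1ra_3 entry, at 0.24, was at 0.041, and without ZnO 1 the entry igf1ra was at -0.061.

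Summed over its 2 entries, igf1rb was at 28.2, 16.9 and 24.1 CPM in ZnO libraries 1, 2 and 3, and at 25.5, 21.7 and 18.5 CPM in controls 1, 2 and 3. The lowest and the highest value were both in ZnO. Its log2 fold change was 0.07 with a 95% interval of -0.39 to 0.54 (edgeR adjusted p = 0.890). A missed threshold does not show equal levels. The intervals leave room for log2 fold changes from -0.14 to 0.56 for igf1ra and from -0.39 to 0.54 for igf1rb. The smallest entry, igf1ra_2, held 1.04% to 3.41% of the igf1ra counts, or 7 to 27 counts in a library.

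Among the binding proteins named at the outset, igfbp1a stood apart. A further binding protein gene, igfbp6b, was lower in ZnO as well and is given below. IGFBP1 is known in vertebrates as a binding protein that starvation, hypoxia and glucocorticoids raise and that holds back growth. In zebrafish embryos Igfbp1 slows growth and development under hypoxia. The gene had 855, 496 and 743 counts in ZnO libraries 1, 2 and 3, and 3294, 2545 and 1534 counts in controls 1, 2 and 3. These are 29.6, 19.0 and 24.8 CPM in ZnO and 108, 89.5 and 48.4 CPM in controls. All ZnO libraries were below all controls, and control 3 was the control nearest to them. The means were 24.5 ± 5.32 CPM in ZnO and 82.0 ± 30.5 CPM in controls (SD, n = 3 each), a ratio of 0.298. The log2 fold change was -1.74 ± 0.31 (SE), with a 95% interval of -2.47 to -1.02.

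This was the smallest p among the IGF entries, ranking 259 of 25962, and it missed the edgeR threshold (adjusted p = 0.0693) while DESeq2 called it (adjusted p = 4.46e-07). The edgeR call turned on control 3. Without that library, edgeR called igfbp1a lower (log2 fold change -2.02, adjusted p = 0.0300), and without any other library the adjusted p was between 0.0727 and 0.227. Clock genes differed between the libraries as well, largely along with the group. An index of per1a, nr1d1, per1b, ciarta and per3, averaged as log2 CPM, was 4.71, 0.37 and 0.09 in ZnO libraries 1, 2 and 3, and 6.23, 5.64 and 4.69 in controls 1, 2 and 3. ZnO 1 and control 3 were close in that index and had 29.6 and 48.4 CPM of igfbp1a. ZnO libraries 2 and 3 were far below all controls in it. A fit with the index as covariate thus takes up part of the group difference, and index and group cannot be told apart well. With the index as a covariate the log2 fold change of igfbp1a was -1.18 ± 0.46 (SE; edgeR adjusted p = 0.734), that of igf2b was -0.43 ± 0.19 (SE; edgeR adjusted p = 0.752) and that of igf2b_1 was -0.23 ± 0.25 (SE; edgeR adjusted p = 0.931). The 5 clock genes were picked in an earlier look at these data, and with the covariate edgeR called 0 of all entries (829 higher and 892 lower at an unadjusted p under 0.05).

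**Figure D3:**
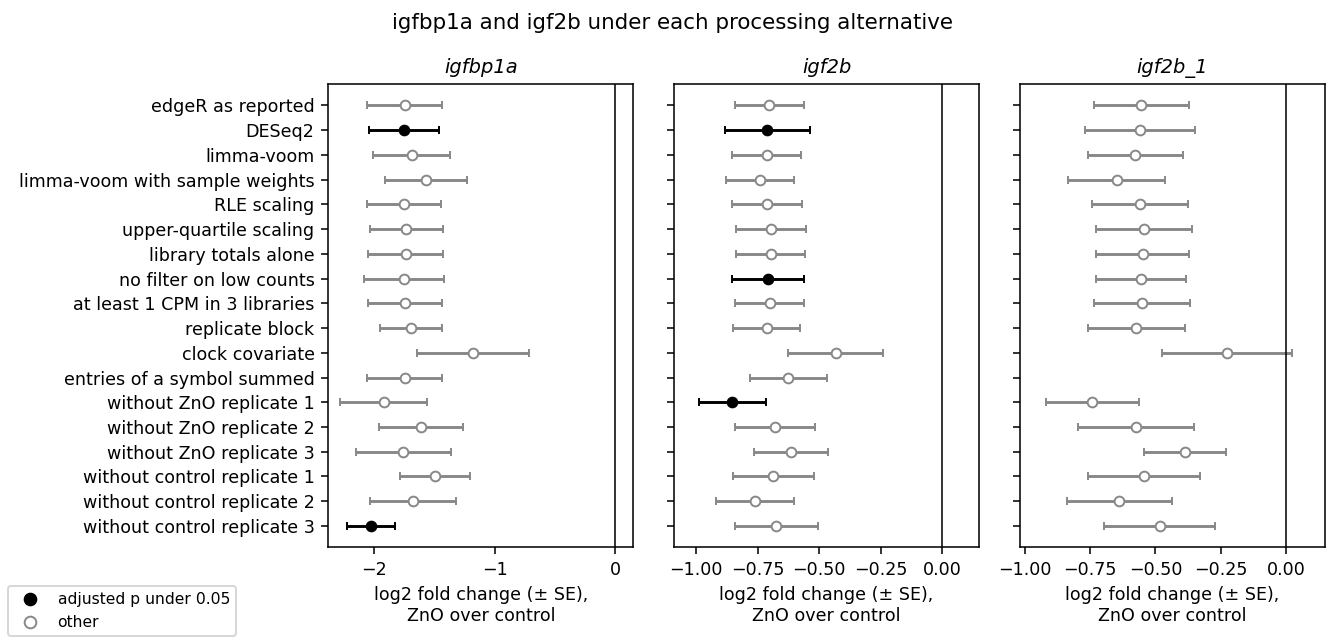
Log2 fold change of ZnO over control with its SE (horizontal axes) for igfbp1a and for both entries of igf2b under each processing setting (vertical axis). Filled points have an adjusted p under 0.05. All estimates are negative, from -2.02 to -1.18 for igfbp1a, from -0.85 to -0.43 for igf2b and from -0.74 to -0.23 for igf2b_1, and the clock covariate gives the one nearest 0 in each panel.

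Next to igfbp1a lies igfbp3, which codes for the main IGF carrier of mammalian plasma. The RefSeq gene table of assembly GRCz12tu lists them as neighbouring protein-coding genes. Their readouts went apart. igfbp3 was at 39.1, 42.6 and 42.0 CPM in ZnO libraries 1, 2 and 3, and at 47.9, 39.7 and 39.9 CPM in controls 1, 2 and 3. Its groups overlapped, and its log2 fold change was -0.04 with a 95% interval of -0.31 to 0.22 (edgeR adjusted p = 0.895). Within each library the log2 ratio of igfbp1a to igfbp3 was -0.40, -1.17 and -0.76 in ZnO libraries 1, 2 and 3, and 1.17, 1.17 and 0.28 in controls 1, 2 and 3. As igfbp1a did not overlap between the groups and igfbp3 stayed within 39.1 to 47.9 CPM, the ratio had to separate the groups. The means differed by -1.65, with p = 0.1 in a 2-sided exact permutation test, the smallest this design allows. The pair was chosen after its values were seen. The permutation p was thus fixed by the values of both genes and adds nothing to them.

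The binding protein gene igfbp5b varied least between libraries. IGFBP5 binds to extracellular matrix and bone, and is cut by the protease PAPP-A. igfbp5b was at 88.3, 89.4 and 89.3 CPM in ZnO libraries 1, 2 and 3, and at 97.3, 101 and 106 CPM in controls 1, 2 and 3. All ZnO libraries were below all controls, by a small step. Their spread was a coefficient of variation of 0.708% in ZnO and 4.25% in controls, where counting error alone gives 1.99% in ZnO and 1.81% in controls. The log2 fold change was -0.19 ± 0.10 (SE), with a 95% interval of -0.41 to 0.03 (edgeR adjusted p = 0.393, DESeq2 adjusted p = 0.430).

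The gene igfbp2a had higher readings in ZnO at low counts. Summed over its 2 entries it was at 3.81, 4.55 and 5.31 CPM in ZnO libraries 1, 2 and 3, and at 3.15, 2.89 and 3.79 CPM in controls 1, 2 and 3. The groups just failed to overlap. The log2 fold change was 0.47 with a 95% interval of -0.01 to 0.96 (edgeR adjusted p = 0.306). By entry it was 0.34 for igfbp2a (edgeR adjusted p = 0.507) and 0.78 for igfbp2a_1, which had 21 to 49 counts in a library (edgeR adjusted p = 0.318). The groups did not overlap at the entry igfbp2a but did at igfbp2a_1, with ZnO 1 at 1.11 CPM and control 3 at 1.17 CPM. Without ZnO 3 the igfbp2a estimate was 0.17, and with the clock covariate it was 0.11 for igfbp2a and 0.12 for igfbp2a_1. The duplicate of igfbp1a, igfbp1b, was near the limit of detection. It had 0, 7 and 19 counts in ZnO libraries 1, 2 and 3, and 8, 19 and 5 counts in controls 1, 2 and 3, and was not tested. The 0 in ZnO 1 allows up to 0.104 CPM (3 counts, counting error only).

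Taken over the 5 binding protein genes described here, the counts shifted away from igfbp1a. It held 18.4%, 12.2% and 15.3% of their counts in ZnO libraries 1, 2 and 3, and 42.1%, 38.3% and 24.4% in controls 1, 2 and 3. These are shares of counts, not corrected for transcript length. The summed level was 161, 156 and 162 CPM in ZnO libraries 1, 2 and 3, and 257, 234 and 198 CPM in controls 1, 2 and 3. Without igfbp1a the sum was 131 to 137 CPM in ZnO and 145 to 149.8 CPM in controls, so most of the gap came with that gene. Further binding protein genes are outside these shares and sums. Mean CPM in ZnO and controls was 29.5 and 23.4 for igfbp2b, 32.7 and 22.8 for igfbp7, and 5.68 and 15.4 for igfbp6b. The 3 ligand genes summed to 93.2, 94.9 and 69.7 CPM in ZnO libraries 1, 2 and 3, and to 111, 98.4 and 121 CPM in controls 1, 2 and 3. The sums are a description and were not tested.

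**Figure D4:**
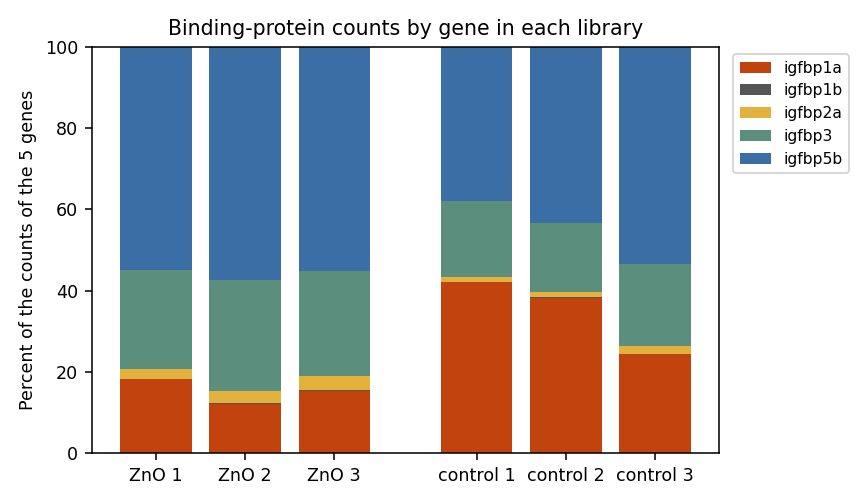
Percent of the counts of the 5 binding protein genes described here (vertical axis) held by each gene in every ZnO and control library. The igfbp1a part is 12.2% to 18.4% in ZnO and 24.4% to 42.1% in controls, while igfbp5b holds 54.9% to 57.4% in ZnO and 37.9% to 53.4% in controls. Shares of a fixed total move against each other. The level of igfbp5b itself was lower in ZnO, at 88.3 to 89.4 CPM against 97.3 to 106 CPM in controls.

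Genes that act around the same ligands were listed as further IGF family members and regulators of the binding proteins. Of the 21 listed, 20 had an entry and 13 were tested. By edgeR and by limma-voom 1 was higher and 0 were lower, while DESeq2 called 1 higher and 2 lower. Over all entries edgeR called 0.0963% higher and 0.331% lower, and DESeq2 called 1.63% higher and 2.96% lower. At an unadjusted edgeR p under 0.05 there were 4 higher and 2 lower, or 46.2% of the 13 against 15.9% of all entries, and the median log2 fold change of the 13 was -0.01. The gene past the threshold was stc2a, a stanniocalcin, whose mammalian counterpart blocks the protease PAPP-A. It was at 15.7, 18.8 and 17.8 CPM in ZnO libraries 1, 2 and 3, and at 8.82, 9.29 and 9.82 CPM in controls 1, 2 and 3. It rose by 0.90 ± 0.13 on the log2 scale (SE; edgeR adjusted p = 0.0418). Over 17 alternatives it was called in 10, among them with its entries summed (log2 fold change 1.12, edgeR adjusted p = 0.0259). Leaving out any library other than ZnO 1 ended the edgeR call (adjusted p 0.0950 to 0.157), with log2 fold changes from 0.83 to 0.93, and so did the replicate block (0.0837) and the clock covariate (0.584). The second entry, stc2a_1, gave 1.33 on the log2 scale (edgeR adjusted p = 0.0327), and that call ended in the same settings (0.0596 to 0.128 with a library other than ZnO 1 left out, 0.0821 with the block and 0.491 with the covariate).

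The protease gene itself, pappaa, was on the low side. In zebrafish its product Papp-aa cuts Igfbp5a and releases IGF in the ion-transporting cells of the skin. It was at 14.3, 11.5 and 6.94 CPM in ZnO libraries 1, 2 and 3, and at 25.3, 16.4 and 22.3 CPM in controls 1, 2 and 3, without overlap. The estimate was -0.97 ± 0.27 in log2 (SE; edgeR adjusted p = 0.161, DESeq2 adjusted p = 0.0193), and -0.46 with the clock covariate. The log2 ratio of pappaa to stc2a, its entries summed, was -1.22, -1.76 and -2.56 in ZnO libraries 1, 2 and 3, and 0.56, -0.19 and 0.46 in controls 1, 2 and 3. The means differed by -2.12 (2-sided exact permutation p = 0.1, the smallest possible), for a pair chosen after its values were seen. As pappaa was lower and stc2a higher in every ZnO library than in every control, the ratio had to separate the groups. The permutation p was thus fixed in advance and adds nothing to the values of either gene.

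Of the further binding protein genes tested, igfbp6b was lower in ZnO, as igfbp1a was, while igfbp2b and igfbp7 had positive fold changes. The log2 fold change was 0.33 for igfbp2b (edgeR adjusted p = 0.256) and 0.51 for igfbp7 (edgeR adjusted p = 0.561), whose groups overlapped. IGFBP6 in mammals binds IGF2 in preference to IGF1. igfbp6b was at 8.38, 5.40 and 3.27 CPM in ZnO libraries 1, 2 and 3, and at 19.9, 14.1 and 12.1 CPM in controls 1, 2 and 3. All ZnO values were below all controls. In log2 terms the step was -1.44 ± 0.34 (SE; edgeR adjusted p = 0.121, DESeq2 adjusted p = 0.00123). Without ZnO 1 edgeR called it (-1.84, adjusted p = 0.0432), and with the clock covariate the estimate was -0.58. Of the rest, 7 genes were not tested for low counts, namely igf3, ins, insb, igfbp5a, igfbp6a, igfals and stc2b, with at most 14 counts in a library at any entry.

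**Figure D5:**
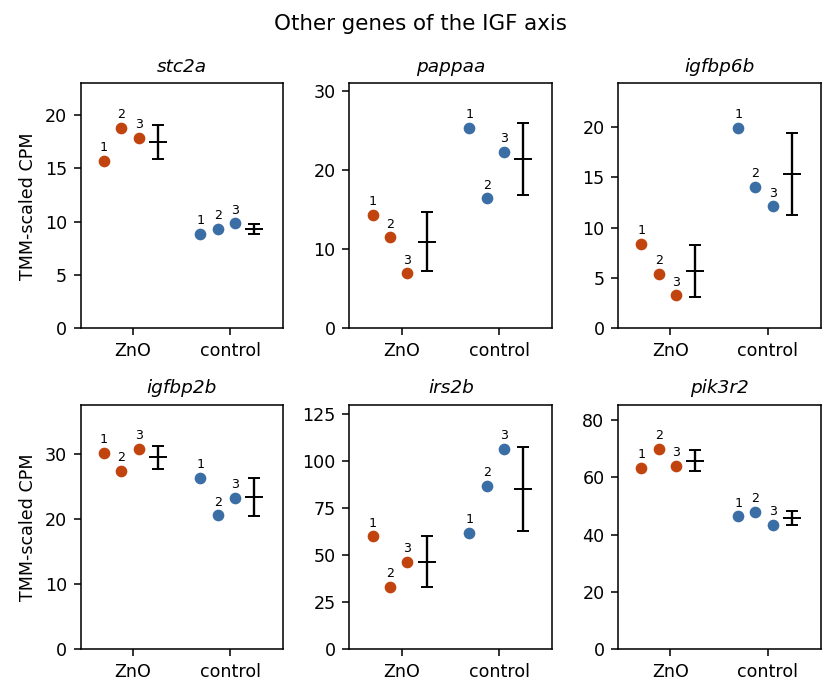
TMM-scaled CPM (vertical axes, from 0) of 6 further IGF axis genes in each ZnO and control library, with points for libraries and lines for the mean with SD (n = 3). The genes stc2a, igfbp2b (log2 fold change 0.33, edgeR adjusted p = 0.256) and pik3r2 lie higher in every ZnO library than in every control. The genes pappaa, igfbp6b and irs2b lie lower. Groups did not overlap at 53.8% of the 13 tested family and regulator genes and 20.8% of the 53 signal transduction genes, against 22.5% of all entries. Of the 6, edgeR called stc2a.

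Downstream of the receptor, 53 of 54 listed genes of insulin and IGF signal transduction had an entry and were tested. By edgeR and by limma-voom 0 passed, while DESeq2 called 1 higher and 1 lower. Over all entries edgeR called 0.428% and DESeq2 called 4.59%. At an unadjusted edgeR p under 0.05 there were 6 higher and 2 lower, or 15.1% of the list, close to the 15.9% of all entries. The median log2 fold change was 0.07. The smallest p was that of pik3r2, a regulatory subunit of PI3 kinase, at 65.8 ± 3.62 CPM in ZnO and 45.9 ± 2.35 CPM in controls (SD, n = 3 each; log2 fold change 0.52, edgeR adjusted p = 0.0748, DESeq2 adjusted p = 0.00350). Next came irs2b, an adaptor that links the receptors to PI3 kinase, at 60.1, 33.4 and 46.4 CPM in ZnO libraries 1, 2 and 3, and at 62.0, 86.8 and 107 CPM in controls 1, 2 and 3. ZnO 1 and control 1 nearly met. The difference in log2 was -0.87 ± 0.26 (SE; edgeR adjusted p = 0.178, DESeq2 adjusted p = 0.0240). The third was tsc1a, an mTOR inhibitor gene, at 0.50 on the log2 scale (edgeR adjusted p = 0.181). With the entries of its symbol summed it was at 0.34 (edgeR adjusted p = 0.175).

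FoxO factors are held out of the nucleus when IGF signalling is active, and their list included genes known as FoxO targets in mammals. The list did not hold igfbp1a or irs2b, which were lower in ZnO and are described above. Of 24 listed genes 21 were tested, with a median log2 fold change of 0.13. By edgeR and by limma-voom 0 rose and 1 fell, where edgeR called 0.428% of all entries. At an unadjusted edgeR p under 0.05 there were 4 higher and 3 lower, or 33.3% of the 21 against 15.9% of all entries. At 42.9% of them the groups did not overlap, against 22.5% of all entries. The gene that fell was bcl6ab, a transcriptional repressor gene. It was at 18.3, 11.1 and 13.3 CPM in ZnO libraries 1, 2 and 3, and at 38.3, 31.7 and 33.9 CPM in controls 1, 2 and 3. The step was -1.28 ± 0.19 in log2 (SE; edgeR adjusted p = 0.0418). Over 17 alternatives bcl6ab was called in 10. Its edgeR call also ended without any 1 library other than ZnO 1 (adjusted p 0.0848 to 0.165), with the replicate block (0.0520) and with the clock covariate (0.561). DESeq2 called 2 higher, foxo3a and sesn3, and 3 lower, bcl6ab, ccng2 and ddit4. Over all entries DESeq2 called 1.63% higher and 2.96% lower.

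The 5 named genes most like igfbp1a over the 6 libraries, by Pearson correlation of log2 CPM, were atp13a1, myb_1, pes, txnrd3 and bin1b, at 0.996 for atp13a1 and 0.992 for bin1b. The libraries carry the group difference, so likeness includes it, and 108 of the 17403 entries considered reached 0.95. Their own steps were smaller than that of igfbp1a: atp13a1 stood at 59.4 ± 2.95 CPM in ZnO and 78.5 ± 7.01 CPM in controls (SD, n = 3 each). The 5 log2 fold changes were between -0.44 and -0.32. By edgeR 0 of the 5 passed (adjusted p 0.131 to 0.208), against 0.428% of all entries. DESeq2 called myb_1, against 4.59% of all entries. All 5 had an unadjusted edgeR p under 0.05, against 15.9% of all entries. As they were picked for likeness to igfbp1a, whose groups did not overlap, these counts add nothing about them. They were described, not tested, as a group.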

How the data were processed

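Poly(A) RNA was sequenced as paired reads of 150 bases, per the labels' protocols. The authors deposited raw counts per gene entry for 6 libraries. Tools named in the submitters' processing notes are HTSeq, BWA, DESeq2 and cutadapt, with the build GRCz11. Their versions, the annotation, the strand setting and the handling of reads that fit several entries are not stated there. BWA does not split reads over introns, so entries with short exons and entries of near-identical copies are less certain.

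Entries were kept by filterByExpr (minimum count 10), leaving 25962 with 99.9% of counts, scaled by TMM and compared by the robust quasi-likelihood test of edgeR with the group as sole term, with Benjamini-Hochberg adjustment over all kept entries and a threshold of 0.05. SE is the log2 fold change divided by the root of F, and intervals are 95% and unadjusted. Log CPM used a prior count of 2. The scripts were tested on simulated data. Software was DESeq2 1.42.0, edgeR 4.0.16 and limma 3.58.1 in R 4.3.3, with figures by matplotlib 3.10.9 in Python 3.11.15. Alternatives were limma-voom (plain, and with sample weights), DESeq2, other scalings and filters, the replicate number as a block, a clock covariate, summed entries and each library left out.

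The members and lists were chosen with earlier results of these data known. All entries of the 10 genes are named whatever their result, pathway list genes are named if past the threshold, or, in a list with none past it, if among its 3 smallest p, and the 5 entries most like the member with the smallest p are named. From marker lists sums, counts and markers at 0 are given. Genes that only DESeq2 called, igfbp2b, igfbp7, stc2a_1, rbp4, fabp10a and krt91 were named after their values were seen. All 10 members matched a symbol in RefSeq's GRCz12tu table, used for names and neighbours only. Replicates of a group differed beyond sampling noise, and no library was left out.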

Additional observations from a re-analysis of the deposited data

How the results depend on the processing

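Calls over all entries depended on the setting. Higher and lower entries numbered 25 and 86 as reported, 423 and 768 by DESeq2, 122 and 283 without a filter on low counts, and 0 and 0 with the clock covariate (829 and 892 at an unadjusted edgeR p under 0.05). Higher entries numbered 15 by limma-voom and 14 with at least 1 CPM in 3 libraries. Leaving out 1 library gave 0 to 87 higher and 12 to 282 lower entries. The replicate block gave 3 and 29. The labels do not say whether equal numbers pair libraries. Deviations of same-numbered libraries from their group means had correlations of 0.01, -0.05 and 0.08. Those of differently numbered libraries ran from -0.18 to 0.16, so the correlations cannot decide it. The block changed no IGF member's call. Over 17 alternatives igfbp1a kept its direction and was called in 2, and igf2b kept its direction and was called in 3: by DESeq2, without the filter (edgeR adjusted p = 0.0358) and without ZnO 1 (edgeR adjusted p = 0.0366). Entries near 0 changed sign. With sample weights igf2a was at -0.033 and igf1ra_2 at -0.078, and with the clock covariate igf2a was at -0.089 and igf1ra_2 at -0.20. With 1 library left out, log2 fold changes ran from -0.14 to 0.24 for igf2a, -0.061 to 0.33 for igf1ra, -0.31 to 0.47 for igf1ra_2, -0.071 to 0.29 for igf1rb, -0.15 to 0.24 for igf1rb_1 and -0.10 to 0.051 for igfbp3. They ran from 0.16 to 0.37 for igf1ra_1, 0.041 to 0.36 for igf1ra_3, 0.17 to 0.41 for igfbp2a and 0.59 to 1.015 for igfbp2a_1. The clock covariate gave 0.67 for igf1ra, 0.42 for igf1ra_1, 0.089 for igf1ra_3, 0.56 for igf1rb and 0.42 for igf1rb_1, none past the threshold. The cause of these shifts was not tested. At few counts, as for igf1, igf1ra_2 and igfbp2a_1, counting error limits what could be seen.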

Other observations

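The growth hormone receptor axis, which drives igf1 in the liver of many vertebrates, had 12 tested genes of 14 listed. By edgeR and limma-voom 0 passed, where edgeR called 0.428% of all entries. At an unadjusted edgeR p under 0.05 there were 3 higher and 4 lower, or 58.3% of the 12 against 15.9% of all entries. Of all entries DESeq2 called 4.59%, and on this list it called 0 higher and 2 lower. The 2 were socs1b and socs1a, inhibitors of cytokine receptor signalling. socs1b was at 5.33, 5.55 and 2.74 CPM in ZnO libraries 1, 2 and 3, and at 10.7, 16.0 and 13.6 CPM in controls 1, 2 and 3 (log2 fold change -1.57 ± 0.28, SE; edgeR adjusted p = 0.0644, DESeq2 adjusted p = 1.84e-05). socs1a was at 15.2, 16.4 and 10.01 CPM in ZnO libraries 1, 2 and 3, and at 24.1, 33.7 and 31.0 CPM in controls 1, 2 and 3 (log2 fold change -1.10 ± 0.21, SE; edgeR adjusted p = 0.0676). The socs1 genes also answer to interferon, and neutrophil markers were lower in the same libraries; the part of either was not tested. The growth hormone receptor gene ghrb was at 19.2, 19.4 and 19.3 CPM in ZnO libraries 1, 2 and 3, and at 12.4, 16.0 and 11.5 CPM in controls 1, 2 and 3 (log2 fold change 0.54, edgeR adjusted p = 0.150, DESeq2 adjusted p = 0.0629).

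The 4 genes of IGF2 mRNA-binding proteins, which hold and stabilise transcripts, had no call by edgeR, limma-voom or DESeq2, and 0 had an unadjusted edgeR p under 0.05. Over all entries edgeR called 0.428% and DESeq2 called 4.59%, and 15.9% had an unadjusted edgeR p under 0.05. A list of 4 genes is too short to tell 0 from these shares. The log2 fold changes were 0.31 for igf2bp2a (edgeR adjusted p = 0.365), 0.83 for igf2bp1 (edgeR adjusted p = 0.515) and -0.15 for igf2bp2b (edgeR adjusted p = 0.721). With 1 library left out they ran from 0.23 to 0.43 for igf2bp2a, from 0.17 (without ZnO 3) to 1.42 (without control 1) for igf2bp1, and from -0.31 to -0.014 for igf2bp2b.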
